A study of Mus musculus with 12 samples.

Results

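The genes described here were 38 subunits and activators of the proteasome, of 24189 genes listed in all 10 RNA-seq libraries of the series. A gene was taken when its name, with a trailing overlap tag removed, was 1 of 38 listed symbols, and no expression value entered this match. The symbols were listed with earlier results of these data known. They were 7 α ring subunits (*Psma1* to *Psma7*), 7 constitutive β subunits (*Psmb1* to *Psmb7*), 3 immune β subunits (*Psmb8*, *Psmb9* and *Psmb10*), 9 subunits of the base and 8 of the lid of the regulatory cap, and 4 activators (*Psme1* to *Psme4*). All 38 were above 0 in every library and all 38 passed the filter on low values.

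Expression was measured in plasmablasts (PBs) of 3 genotypes and in splenic plasma cells (PCs) of 2 genotypes, with 2 libraries per group, all from mice on the C57BL/6 background. The PBs were made in culture from splenic CD43- B cells grown on 40LB feeder cells, a fibroblast line that supplies CD40 ligand and BAFF, first with IL-4 and then with IL-21, and were sorted as CD138+CD23- cells on day 8. Their genotypes were *Xbp1* fl/fl, which is the control, *Cd23*-Cre *Xbp1* fl/fl, which lacks the transcription factor Xbp1 from the mature B cell onwards, and *Bhlha15* CreER/CreER, which carries CreER at the gene of the transcription factor Mist1 on both alleles. The PCs were TACI+CD138+ cells of the spleen, taken on day 7 after immunization with NP-KLH in alum, from control mice and from *Cd23*-Cre *Bhlha15* fl/fl mice. The control PCs are labelled wildtype, whereas the study's sample list gives them as *Bhlha15* fl/fl. The design text of the series also names the other cell type for the *Xbp1* fl/fl PBs and for the *Cd23*-Cre *Bhlha15* fl/fl PCs, and the labels of the samples were followed here. The *Bhlha15* CreER/CreER PBs had no control of their own allele and were set against the *Xbp1* fl/fl PBs, which also served the *Xbp1* comparison. In addition, 2 lists of Mist1-bound regions came from Bio-ChIP-seq (streptavidin pulldown of biotin-tagged Mist1) of CD138+ PBs stimulated with LPS for 4 days, from mice with *Bhlha15* fl/fl, an allele that carries the biotin acceptor tag, and with the biotin ligase on both *Rosa26* alleles (BirA/BirA).

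The proteasome degrades proteins marked with ubiquitin, including misfolded chains that are exported from the endoplasmic reticulum. Its 20S core is a stack of rings: the α rings gate the entry, and the β rings carry the proteolytic sites on the subunits encoded by *Psmb5*, *Psmb6* and *Psmb7*. In lymphoid cells and after interferon, newly built particles take up the immune β subunits instead, where *Psmb8* replaces *Psmb5*, *Psmb9* replaces *Psmb6* and *Psmb10* replaces *Psmb7*, which changes the cleavage preference and the supply of peptides for MHC class I. The 19S cap consists of the base, with the ATPases (*Psmc* genes) that unfold substrates, and the lid, whose Psmd14 removes ubiquitin. Other activators open the core without ubiquitin: *Psme1* and *Psme2* encode the PA28αβ ring, *Psme3* the nuclear PA28γ and *Psme4* the nuclear activator PA200.

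The genes named by the genotypes were examined first. *Bhlha15* was at 176 and 159 TPM (a length-corrected share of all transcripts) in control PBs, 3.57 and 2.60 TPM without Xbp1, 0.210 and 0.551 TPM in PBs of genotype *Bhlha15* CreER/CreER, 258 and 242 TPM in control PCs and 14.4 and 16.6 TPM in *Cd23*-Cre *Bhlha15* fl/fl PCs. The Xbp1-deficient PBs therefore had little *Bhlha15* mRNA as well, so the loss of Xbp1 and the low *Bhlha15* cannot be told apart within that genotype. *Xbp1* itself was at 3168 and 3043 TPM in control PBs and at 1981 and 2024 TPM in Xbp1-deficient PBs, a value over the whole gene that does not separate transcripts with and without the floxed exon.

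Read depth is unknown, since TPM values keep none. Replicates of the members differed by a median of 0.0373 to 0.0835 on the log2 scale, against 0.0695 to 0.134 for 10177 genes, and no pair of libraries held identical values. The libraries are described in the study as independent experiments but the labels name no animals, so that p-values measure the spread between these libraries, which may be in part technical. All 8 plasma cell markers, *Xbp1* among them, were above 0 in every library, with a sum of 41761 to 41765 TPM in control PBs, 21029 to 21660 TPM in Xbp1-deficient PBs, 38371 to 41820 TPM in *Bhlha15* CreER/CreER PBs and 91316 to 98451 TPM in PCs. The lower sum without Xbp1 came mainly from *Mzb1* (15573 and 14995 TPM against 3707 and 3547 TPM) and *Igj* (21687 and 22486 TPM against 14414 and 13743 TPM), while *Irf4* was at 683 and 651 TPM against 865 and 971 TPM, and *Prdm1* and *Tnfrsf13b* were also higher in both mutant libraries. The summed neutrophil markers (8 genes) were at 10.3 to 11.6 TPM in control PBs with 2 of 8 at 0, at 133 to 134 TPM in Xbp1-deficient PBs with 1 at 0, at 3.89 to 9.36 TPM in *Bhlha15* CreER/CreER PBs with 1 to 4 at 0, and at 461 to 988 TPM in PCs with none at 0. The summed fibroblast markers (6 genes), which the feeder cells would carry, were at 731 to 1414 TPM in PBs and at 1.29 to 1.56 TPM in PCs, and the summed T cell markers (7 genes) at 8.70 to 13.9 TPM and at 72.1 to 103 TPM.

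The members were abundant. Together they made up 1.05% to 1.16% of all TPM in the 6 PB libraries and 0.959% to 1.02% in the 4 PC libraries. Since TPM are corrected for gene length, levels of genes can be set side by side. *Psmb4*, a constitutive β subunit, had the highest median over the 10 libraries with 835 TPM, followed by *Psmb1* with 647 TPM and the immune subunit *Psmb8* with 645 TPM. The ranges of *Psmb1* (609 to 777 TPM) and *Psmb8* (620.0 to 873 TPM) overlapped, so that their order is not resolved. At the other end stood *Psma3* with a median of 19.1 TPM, *Psma5* with 50.9 TPM and *Psmb5* with 90.4 TPM. The lids and bases were more even, with medians of 110 TPM (*Psmd11*) to 495 TPM (*Psmd8*) and of 159 TPM (*Psmd1*) to 297 TPM (*Psmc3*).

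**Figure D1:**
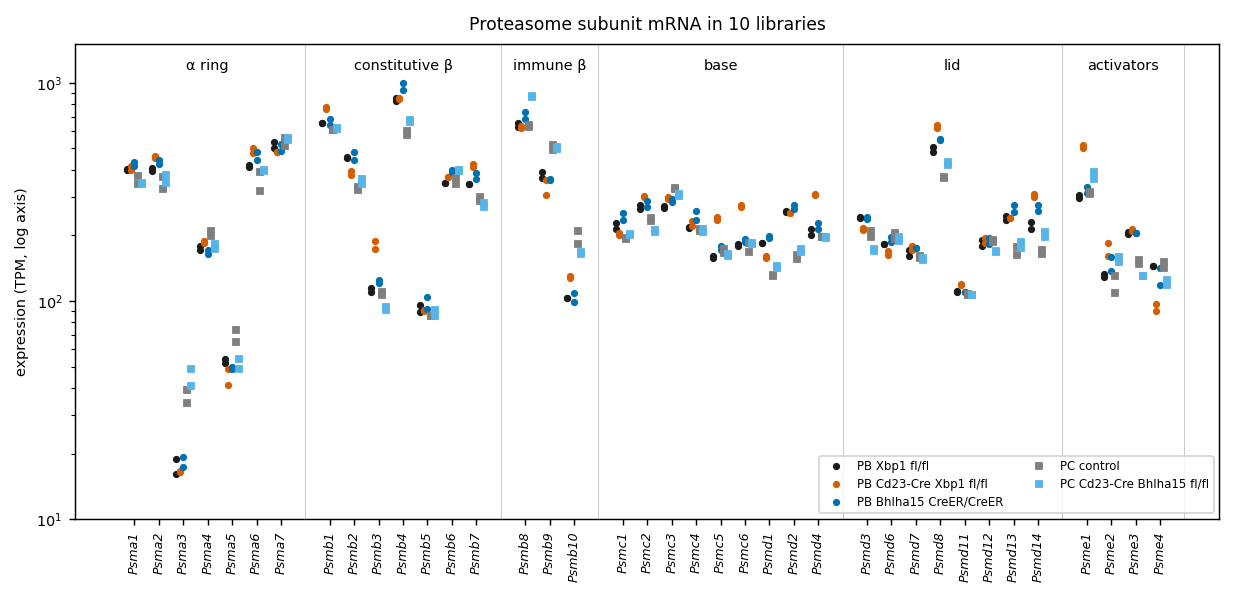
Expression of the 38 members in TPM (log axis), 1 point per library, with 2 libraries per group, circles for PBs and squares for PCs, sorted by place in the particle. *Psma3* and *Psma5* lie below the other members in every library, and *Psmb10* is higher in the 4 PC libraries (164 to 209 TPM) than in the 6 PB libraries (98.9 to 131 TPM).

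*Psma3*, *Psma5* and *Psmb5*, which had the lowest medians, also had much repeated coding sequence. *Psmb10* (median 129 TPM) and *Psme4* (133 TPM) were low as well but had little of it. Of the 50-base stretches of the coding sequence (the read length), 85.9% of those of *Psma3*, 79.8% of *Psma5*, 70.8% of *Psmb3*, 70.1% of *Psme2*, 56.9% of *Psmb5* and 40.5% of *Psma4* occurred again elsewhere in the mm9 genome. The share was 33.4% for *Psmd11*, 27.2% for *Psmd2*, 23.8% for *Psmc1* and 23.6% for *Psme1*. For the other 28 of the 38 members it was at most 20%. Whether such reads were dropped or shared out is not given in the sources used here, and the levels and changes of these 10 members are uncertain. Antisense overlap was small for the immune subunits: 6.83% of the exonic bases of *Psmb8* and 5.48% of those of *Psmb9*, the latter with *Tap1*, were shared with a gene on the opposite strand.

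The tissue-specific subunits were near 0. *Psma8*, a testis form of an α subunit, was at 0 to 0.278 TPM, and *Psmb11*, the thymic cortical β subunit, at 0 to 0.0612 TPM over the 10 libraries. The catalytic β subunits that were measured were accordingly the constitutive and the immune forms.

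The promoter regions of 6 members, picked with their values known, are shown first, to be referred to below. They are *Psme1* and *Psme4*, the activators that moved in opposite directions without Xbp1, *Psmb3*, *Psmd4* and *Psmc6*, which are 3 of the 4 other members that rose with *Psme1*, and *Psmb10*, which differed more between control PCs and control PBs than the other immune subunits. Each line gives the part of the 250 bases before the transcription start site (TSS) of the RefSeq entry (GRCm38.p6) that overlaps no annotated exon, on the strand of the gene, 5′ to 3′, with positions in mm9 found by exact match of the sequence. For *Psmb3*, *Psmd4*, *Psmc6* and *Psme4* the stretch is intergenic and upstream of the annotated gene, for *Psmb10* it is upstream of the gene and in an intron of a transcript on the other strand, and for *Psme1* it lies in an intron of a longer *Psme1* transcript. Capitals mark the letters CCAAT, GAAA repeated with 2 bases between (an interferon-stimulated element), TGACNNNGC (an antioxidant response element) or CAGCTG (an E-box) on either strand.
*Psme1*, chr14:56197086-56197196, plus strand: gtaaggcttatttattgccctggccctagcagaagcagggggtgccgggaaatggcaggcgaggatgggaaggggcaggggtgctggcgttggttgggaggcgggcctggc
*Psme4*, chr11:30671525-30671725, plus strand: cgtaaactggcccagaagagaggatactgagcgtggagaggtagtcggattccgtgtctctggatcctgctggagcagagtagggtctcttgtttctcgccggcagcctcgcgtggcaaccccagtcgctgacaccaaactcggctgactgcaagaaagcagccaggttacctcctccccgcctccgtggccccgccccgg
*Psmb3*, chr11:97564498-97564712, plus strand: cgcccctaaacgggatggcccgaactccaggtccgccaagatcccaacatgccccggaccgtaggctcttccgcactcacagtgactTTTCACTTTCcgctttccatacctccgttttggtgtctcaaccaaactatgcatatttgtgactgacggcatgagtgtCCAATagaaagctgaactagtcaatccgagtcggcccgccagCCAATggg
*Psmd4*, chr3:94846537-94846786, minus strand: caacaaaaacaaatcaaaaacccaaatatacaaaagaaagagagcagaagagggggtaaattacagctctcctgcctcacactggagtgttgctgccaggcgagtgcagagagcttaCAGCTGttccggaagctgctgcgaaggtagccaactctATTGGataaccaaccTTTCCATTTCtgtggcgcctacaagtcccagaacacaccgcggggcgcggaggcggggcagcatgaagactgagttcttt
*Psmc6*, chr14:45949249-45949498, plus strand: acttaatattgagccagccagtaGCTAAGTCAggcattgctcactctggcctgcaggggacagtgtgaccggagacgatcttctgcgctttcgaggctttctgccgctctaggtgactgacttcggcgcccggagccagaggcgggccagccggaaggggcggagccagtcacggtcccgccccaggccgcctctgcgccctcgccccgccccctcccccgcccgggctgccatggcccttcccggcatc
*Psmb10*, chr8:108462293-108462542, minus strand: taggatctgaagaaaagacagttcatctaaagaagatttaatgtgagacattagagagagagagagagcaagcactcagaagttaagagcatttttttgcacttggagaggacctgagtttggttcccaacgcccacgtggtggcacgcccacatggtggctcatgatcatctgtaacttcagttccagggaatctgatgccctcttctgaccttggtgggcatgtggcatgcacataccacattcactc

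In PBs without Xbp1, *Psme1* mRNA rose and *Psme4* mRNA fell, and these were the members with the largest change in each direction. Of the 38 members, 8 fell and 5 rose (limma, Benjamini-Hochberg adjusted p under 0.05 over 12125 genes), where 18.0% of all genes tested fell and 10.3% rose. Hence 21.1% and 13.2% of the members passed, close to the shares among all genes. The median change of the members was -0.14 on the log2 scale.

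*Psme4* was at 144 and 145 TPM in the control PBs and at 89.8 and 96.7 TPM in the Xbp1-deficient PBs. The groups did not overlap, and the log2 fold change was -0.84 (SE 0.08, limma adjusted p = 0.000101). *Psme1* was at 308 and 296 TPM in control PBs and at 520.3 and 501 TPM in Xbp1-deficient PBs. Both mutant libraries were higher than every other library of the series, with a log2 fold change of 0.55 (SE 0.10, limma adjusted p = 0.00396). Of the coding stretches of *Psme1*, 23.6% were repeated elsewhere. Its partner *Psme2*, which builds the same ring, was at 129 and 133 TPM against 160.2 and 184 TPM, and the change of 0.18 (SE 0.12) did not pass the test (limma adjusted p = 0.31). The third PA28 gene, *Psme3*, was at 202 and 206 TPM against 213 and 210.2 TPM, and after scaling its change of -0.15 (SE 0.08) did not pass either (limma adjusted p = 0.18). The ratio of *Psme4* to *Psme1* within a library, which no scaling touches, was 0.469 and 0.490 in control PBs and 0.173 and 0.193 in Xbp1-deficient PBs, 0.381-fold. With 2 libraries against 2, an exact test cannot go below p = 0.333, so none was run on the ratios between genotypes.

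In the 20S core, 3 of 17 subunits fell and 1 rose. *Psma5*, an α ring subunit, was at 51.9 and 54.2 TPM in control PBs and at 48.7 and 41.4 TPM in Xbp1-deficient PBs (log2 fold change -0.45, SE 0.10, limma adjusted p = 0.012). *Psmb2* was at 456 and 454 TPM against 396 and 376 TPM (log2 fold change -0.44, SE 0.10, limma adjusted p = 0.0136). In contrast, *Psmb3* was at 115 and 110.5 TPM against 188 and 173 TPM (log2 fold change 0.47, SE 0.09, limma adjusted p = 0.00696), although 70.8% of its coding stretches were repeated elsewhere. Of the immune subunits, *Psmb9* fell by 0.39 on the log2 scale (SE 0.10, limma adjusted p = 0.0209), with 364 and 390.0 TPM against 359 and 306 TPM. *Psmb8* was at 652 and 629 TPM against 637 and 620.0 TPM and *Psmb10* at 103 and 103 TPM against 128 and 131 TPM, and neither passed the test (limma adjusted p = 0.139 and 0.402).

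The regulatory cap split by subunit. In the base, the ATPase genes *Psmc5* and *Psmc6* and the ubiquitin receptor gene *Psmd4* rose by 0.38, 0.38 and 0.36 on the log2 scale, while the ATPase gene *Psmc1* and the scaffold gene *Psmd1* fell by 0.32 and 0.42. *Psmc6* was at 178 and 183 TPM in control PBs and at 275 and 270.3 TPM in Xbp1-deficient PBs (SE 0.08, limma adjusted p = 0.00921). Both *Psmc6* values in Xbp1-deficient PBs lay above those of the other 8 libraries, which ranged up to 192 TPM. *Psmd4* behaved in the same way, with 305 and 308 TPM against at most 228 TPM in the other groups. In the lid, *Psmd3* and *Psmd6* fell by 0.38 and 0.34, and the other 6 of 8 lid genes did not pass the test.

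The direction of these counts depended on how the libraries were scaled. The scaling factors of the Xbp1-deficient PBs were 1.12 in both libraries, against 0.896 to 0.999 in the other PBs, which moved the median of all genes from 0.21 (TPM as deposited) to 0.00 on the log2 scale. With TPM as deposited, 4 members fell and 15 rose, where 11.2% of all genes fell and 28.2% rose. With quantile normalization 6 fell and 13 rose (16.2% and 20.7% of all genes), and with scaling on the members themselves 9 fell and 11 rose (12.3% and 15.8% of all genes). Under all 4 scalings the 5 members that rose were called, as were *Psmb2*, *Psmd1*, *Psmd3* and *Psme4* among the 8 that fell. *Psme1* and *Psme4* were the only members called under each of the 15 settings tried, with log2 fold changes of 0.48 to 0.77 and of -0.90 to -0.63. Fewer members were called when any 1 of the libraries compared was left out, and fewer genes over all genes tested as well. Such fits leave 1 library in a group. All 6 neutrophil marker genes that could be tested were also higher in Xbp1-deficient PBs (median log2 fold change 3.71), and their part in the result was not tested. The 5 macrophage markers did not move as 1 list: *Cd68* was at 128 and 131 TPM in control and at 16.9 and 18.7 TPM in Xbp1-deficient PBs, *Lyz2* was at 5.86 and 5.22 TPM against 15.1 and 15.8 TPM, and the other 3 were at 0 to 0.268 TPM.

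**Figure D2:**
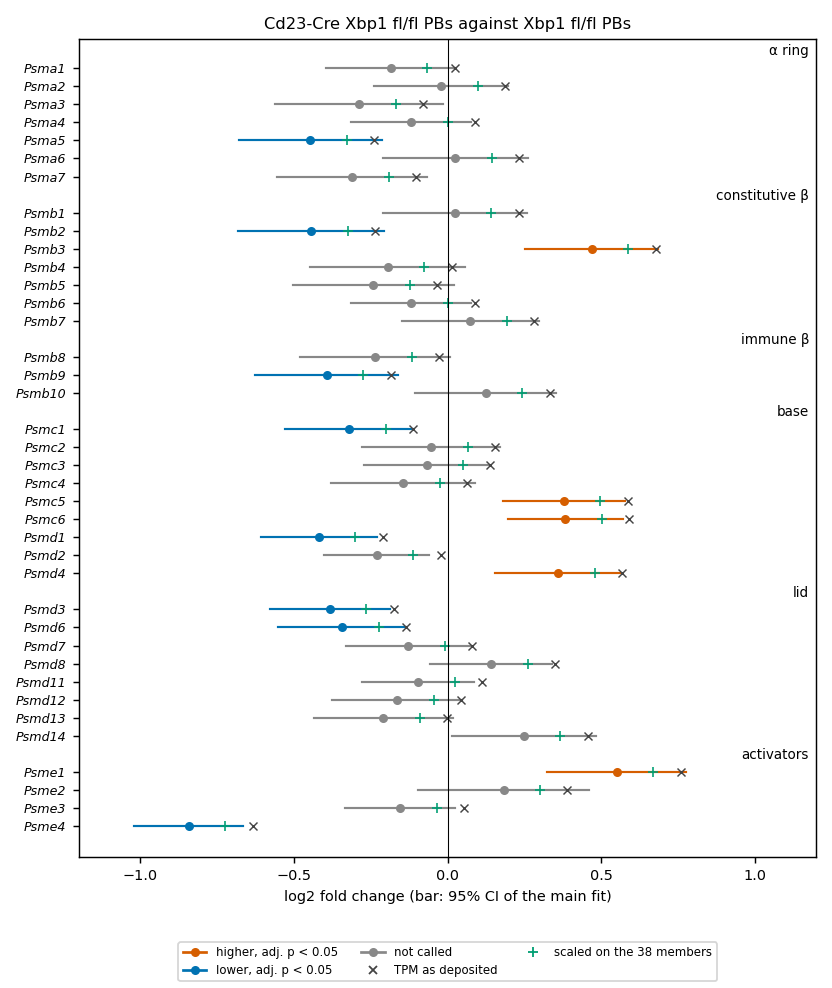
log2 fold change of the 38 members in *Cd23*-Cre *Xbp1* fl/fl PBs against *Xbp1* fl/fl PBs (2 libraries each), with the 95% confidence interval as a bar, and with the values for TPM as deposited (crosses) and for scaling on the members (plus signs). *Psme4* at -0.84 and *Psme1* at 0.55 lie at the ends, and the other scalings move all members to the right by the same amount without turning the sign of any of the 13 called members.

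In *Bhlha15* CreER/CreER PBs none of the 38 members passed the test against *Xbp1* fl/fl PBs with limma, where 0.272% of all genes tested were called lower and 0.0495% higher. At an unadjusted p under 0.05 there were 2 members, *Psmb6* and *Psmd14*, beside 1267 of all 12125 genes tested. The log2 fold changes ranged from -0.11 (*Psme4*) to 0.31 (*Psmd14*) with a median of 0.13, and 34 of 38 were above 0. With scaling on the members the median was 0.01. *Psmd14*, the deubiquitinase of the lid, was at 259 and 277 TPM against 230.2 and 214 TPM (SE 0.10, limma adjusted p = 0.343). *Psmb8* was at 683 and 732 TPM against 652 and 629 TPM, a log2 fold change of 0.19 (SE 0.11, limma adjusted p = 0.592). For *Psme4*, the replicates at 142 and 119 TPM differed from each other by more than their mean differed from the control. The count of calls was 0 under every alternative that kept both libraries of each group. For TPM as deposited 12 members had an unadjusted p under 0.05, beside 1446 of all 12125 genes. For quantile-normalized values there were 9, beside 1591 of all genes.

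The *Psme1* and *Psme4* values of Xbp1-deficient PBs also stood apart from those of the *Bhlha15* CreER/CreER PBs. Setting the mutant PB groups against each other avoids the shared control, and in that comparison 17 of 38 members were lower and 3 higher in the Xbp1-deficient PBs (limma), where 17.8% of all genes were lower and 9.34% higher. Here again the split depended on the scaling, with 8 lower and 11 higher for TPM as deposited (10.4% and 32.8% of all genes), 7 lower and 11 higher with quantile normalization (15.3% and 19.2%) and 9 lower and 10 higher with scaling on the members (9.85% and 26.7%). *Psme4* was lower by 0.73 on the log2 scale, with 89.8 and 96.7 TPM against 142 and 119 TPM (log2 fold change -0.73, SE 0.08, limma adjusted p = 0.000234). *Psmd1*, a scaffold of the base, was at 158 and 161 TPM against 194 and 198 TPM (log2 fold change -0.55, SE 0.08, limma adjusted p = 0.00165). *Psmc1* was at 201 and 206 TPM against 236 and 252 TPM (log2 fold change -0.51, SE 0.09, limma adjusted p = 0.00377). The members that were higher were *Psme1* (log2 fold change 0.41, limma adjusted p = 0.0162), *Psmb3* (0.30, adjusted p = 0.0462) and *Psmc6* (0.27, adjusted p = 0.0389), and all 3 were called under the 4 scalings. *Psmb3* and *Psmc6* were not called in a model of the 4 libraries compared, without the filter on low values or without the eBayes trend. *Psme1* was not called without the trend. The difference between the mutant genotypes was measured directly for the subunits named here. Fewer members were called when either Xbp1-deficient library was left out, and fewer genes over all genes tested as well.

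In splenic PCs without Mist1, *Psmb8* and the PA28αβ genes were higher. Of the 38 members, 3 were lower and 7 higher in *Cd23*-Cre *Bhlha15* fl/fl PCs than in control PCs (limma, adjusted p under 0.05 over 12028 genes), where 16.2% of all genes were lower and 13.3% higher. The share of members that rose, 18.4%, was near the background, and the share that fell was 7.89%. The median change of the members was 0.03 on the log2 scale.

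*Psmb8* was at 629.5 and 638 TPM in control PCs and at 873 and 861 TPM in Mist1-deficient PCs. The replicates of each group were close together and the groups lay far apart, with a log2 fold change of 0.47 (SE 0.06, limma adjusted p = 0.00392), 1.39-fold. The other immune subunits did not pass the test: *Psmb9* was at 519 and 490.1 TPM against 497 and 510.2 TPM (log2 fold change 0.02, SE 0.07, limma adjusted p = 0.876), and *Psmb10* at 209 and 183 TPM against 164 and 168 TPM (-0.22, SE 0.09, adjusted p = 0.129). Of their constitutive counterparts, *Psmb6* rose from 342 and 366 TPM to 399 and 393 TPM (log2 fold change 0.18, SE 0.05, limma adjusted p = 0.0485). *Psmb5* was at 85.2 and 85.6 TPM against 91.0 and 85.1 TPM, and *Psmb7* at 301 and 287 TPM against 269 and 281 TPM, and both did not pass (adjusted p = 0.486 and 0.435). The ratio of *Psmb8* to *Psmb9* was therefore 1.21 and 1.30 in control PCs and 1.76 and 1.69 in Mist1-deficient PCs.

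All 4 activators passed the test, in both directions. *Psme2* was at 109 and 129.5 TPM in control PCs and at 159.6 and 151 TPM in Mist1-deficient PCs (log2 fold change 0.41, SE 0.08, limma adjusted p = 0.0155), with 70.1% of its coding stretches repeated elsewhere. *Psme1* was at 308 and 315 TPM against 363 and 389 TPM (log2 fold change 0.29, SE 0.06, limma adjusted p = 0.0194). The nuclear activators moved the other way. *Psme4* was at 151 and 142 TPM against 125 and 118 TPM (log2 fold change -0.25, SE 0.07, limma adjusted p = 0.0485) and *Psme3* at 148 and 155 TPM against 130 and 130.4 TPM (-0.20, SE 0.05, adjusted p = 0.0344). For none of the 4 did the groups overlap, but the share of all genes without overlap was not counted. With 2 libraries against 2, an exact test cannot go below p = 0.333. The summed PA28αβ mRNA was 431 ± 19 TPM in control PCs and 531 ± 12 TPM in Mist1-deficient PCs (mean ± SD, n = 2).

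Among the remaining members, *Psmd14* (log2 fold change 0.29, SE 0.05, limma adjusted p = 0.0143) and *Psmd8* of the lid and *Psmb4* of the core rose, with 163 and 171 TPM against 207 and 196 TPM for *Psmd14*. *Psma5* fell, with 64.6 and 73.8 TPM against 54.3 and 49.0 TPM (log2 fold change -0.40, SE 0.08, limma adjusted p = 0.0165). None of the 9 base genes passed the test. Scaling mattered little here, and 8 of the 10 calls, without *Psmb4* and *Psmb6*, held under all 4 scalings. Far fewer members were called when either *Cd23*-Cre *Bhlha15* fl/fl library was left out, and more without control replicate 2. The calls over all genes tested fell and rose in the same way, and such fits leave 1 library in a group. None of the 10 calls held under every setting tried, and without the eBayes trend *Psmb8* alone was called. The call of *Psmb8* held in each setting that kept both libraries of each group. Its log2 fold change was 0.41 to 0.49 under all settings. The summed neutrophil markers of the control PCs (988 and 461 TPM) and of the mutant PCs (845 and 560 TPM) overlapped.

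**Figure D3:**
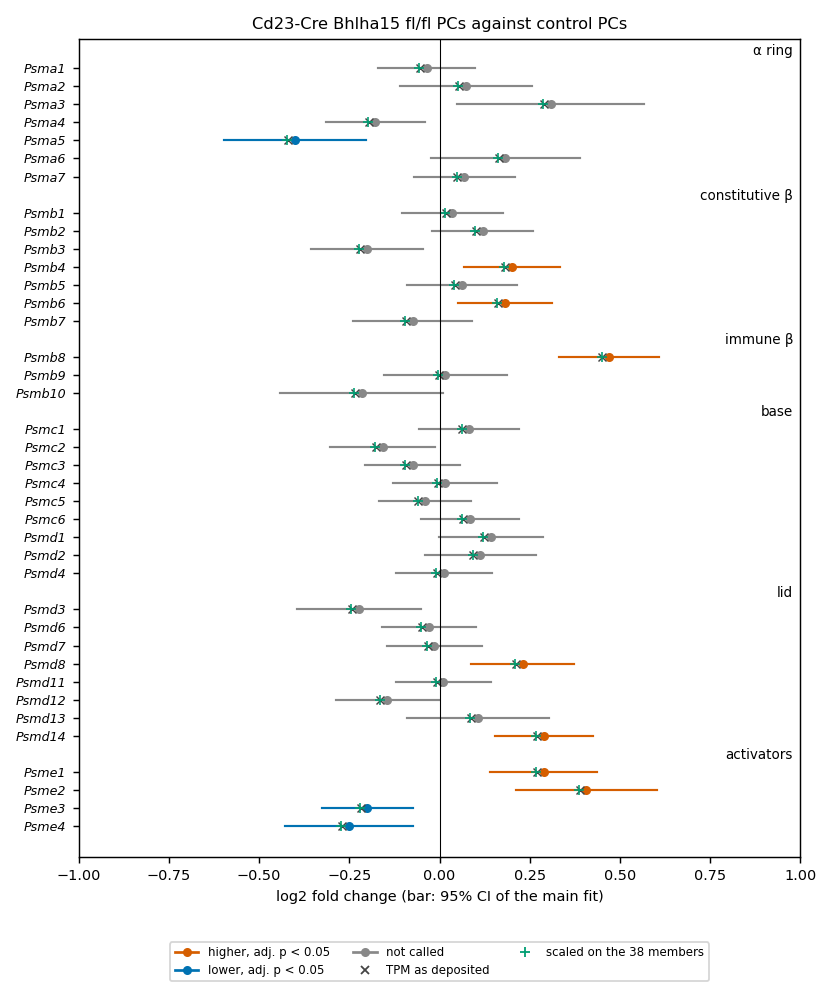
log2 fold change of the 38 members in *Cd23*-Cre *Bhlha15* fl/fl PCs against control PCs (2 libraries each), with the 95% confidence interval as a bar and the values of the other scalings as crosses and plus signs. *Psmb8* at 0.47 and *Psme2* at 0.41 are the highest, *Psma5* at -0.40 is the lowest, and the other scalings shift the values by about 0.02.

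Whether the *Bhlha15* mutations acted differently on the members in PCs and in PBs was tested as the difference of the log2 fold changes in 1 fit over all 10 libraries (limma). None of the 38 members passed, where 4.17% of all genes were called lower and 1.94% higher. An unadjusted p under 0.05 was found for 7 members, beside 2905 of all 13230 genes tested. *Psmb8* differed by 0.30 (SE 0.11, adjusted p = 0.139), *Psme1* by 0.16 (SE 0.10, adjusted p = 0.415) and *Psmb3* by -0.35 (SE 0.11, adjusted p = 0.0902). The call of *Psmb8* depended on the scaling: its difference was 0.31 for TPM as deposited (limma adjusted p = 0.0263), 0.31 with quantile normalization (adjusted p = 0.0205) and 0.37 with scaling on the members (adjusted p = 0.0105). *Psmb3* was the other member called for TPM as deposited (-0.34, adjusted p = 0.0341), and not with the remaining scalings. The replicates of *Psmb8* in *Bhlha15* CreER/CreER PBs, at 683 and 732 TPM, were farther apart than those in either PC group, and its difference was 0.20 to 0.40 when 1 library was left out, called only without replicate 2 of these PBs. The alleles, the controls and the Cre lines differed between these comparisons as well.

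Control PCs and *Xbp1* fl/fl PBs differed in many members. The immune subunits *Psmb9* and *Psmb10* were higher in PCs, whereas of the 7 constitutive β subunits 5 were lower and none was called higher, and of the α ring 3 were lower and 2, *Psma3* and *Psma5*, higher. Of 38 members, 21 were lower and 5 higher in control PCs (limma, adjusted p under 0.05 over 13230 genes), where 38.4% of all genes were lower and 37.6% higher. The counts were 15 lower and 6 higher for TPM as deposited (33.8% and 42.0% of all genes), 12 and 11 with quantile normalization (39.1% and 36.9%) and 10 and 12 with scaling on the members (29.4% and 45.7%). Of the 5 constitutive β calls, those of *Psmb2* and *Psmb4* held under all 4 scalings. That of *Psmb7* held under 3, of *Psmb5* under 2 and of *Psmb1* under 1. *Psmb6*, not called here, was called higher with quantile normalization and with scaling on the members. The PC and PB files list different numbers of genes (24732 and 24189), so that their TPM have slightly different bases. The stage, the source (mouse or culture), the sort and the library series cannot be told apart in this comparison, and in bulk samples fewer cells of a type cannot be told apart from less RNA per cell. The neutrophil and T cell markers tested were all higher, and the fibroblast markers lower, in PCs, and their part in the result was not tested.

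The members that were lower belonged to every group of the particle except the immune subunits. *Psmd2*, another scaffold of the base, was at 258 and 257 TPM in PBs and at 163 and 157 TPM in PCs (log2 fold change -0.80, SE 0.05, limma adjusted p = 1.33e-06). Of its coding stretches, 27.2% were repeated elsewhere. *Psmb4* was at 851 and 827 TPM against 578 and 602 TPM (-0.62, SE 0.07, adjusted p = 5.27e-05) and *Psmd13* of the lid at 246 and 236 TPM against 177 and 162 TPM (-0.62, SE 0.09, adjusted p = 0.000141). In the base 6 of 9 genes were lower and 1, *Psmc3*, higher. In the lid 6 of 8 were lower, of the constitutive β subunits 5 of 7, and of the activators *Psme3* alone. Under every setting tried, 9 members remained lower: *Psmb2*, *Psmb4*, *Psmd1*, *Psmd2*, *Psmd3*, *Psmd8*, *Psmd13*, *Psmd14* and *Psme3*. The signs of *Psmc6*, *Psmd4*, *Psmd7* and *Psmd11*, which were called lower, turned with scaling on the members, where they were at 0.02 to 0.06 and not called.

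*Psmb10* was at 103 and 103 TPM in the control PBs and at 209 and 183 TPM in the control PCs (log2 fold change 0.81, SE 0.09, limma adjusted p = 4.44e-05). All 4 PC libraries lay above all 6 PB libraries. *Psmb9* was at 364 and 390.0 TPM against 519 and 490.1 TPM (log2 fold change 0.31, SE 0.09, limma adjusted p = 0.0112). *Psmb8* at 652 and 629 TPM against 629.5 and 638 TPM did not pass the test (-0.13, SE 0.08, adjusted p = 0.15). *Psma3* was at 16.1 and 18.9 TPM against 34.1 and 39.2 TPM (log2 fold change 0.95, SE 0.12, limma adjusted p = 7.18e-05), but 85.9% of its coding stretches occurred elsewhere in the genome. *Psma3* and *Psmb10* were called higher under every setting tried.

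**Figure D4:**
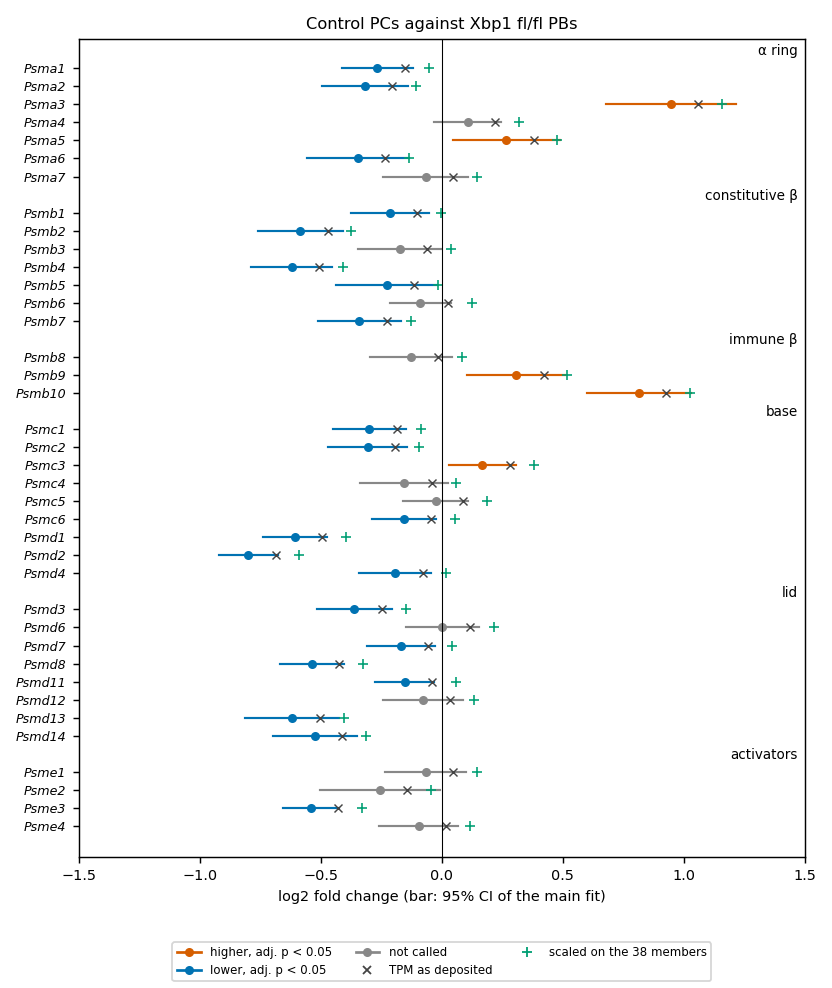
log2 fold change of the 38 members in control PCs against *Xbp1* fl/fl PBs (2 libraries each), with the 95% confidence interval as a bar and the values of the other scalings as crosses and plus signs. *Psmb9* (0.31) and *Psmb10* (0.81) lie to the right of the constitutive β subunits (-0.62 to -0.09) under each scaling drawn, while several small negative values cross 0 with scaling on the members.

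The balance of immune to constitutive catalytic subunits was compared as a ratio of TPM within each library, which does not depend on scaling. The sum of *Psmb8*, *Psmb9* and *Psmb10* over the sum of *Psmb5*, *Psmb6* and *Psmb7* was 1.42 and 1.44 in control PBs, 1.27 and 1.21 in Xbp1-deficient PBs, 1.35 and 1.36 in *Bhlha15* CreER/CreER PBs, 1.87 and 1.78 in control PCs and 2.02 and 2.03 in *Cd23*-Cre *Bhlha15* fl/fl PCs. No PC library overlapped with a PB library. Over 4 PC and 6 PB libraries, with the genotypes pooled, the ratio was 1.92 ± 0.12 and 1.34 ± 0.09 (mean ± SD), 1.43-fold higher in PCs (exact two-sided permutation test, p = 0.00952, the smallest that 210 assignments give here, adjusted p = 0.0127 over 4 ratios). This test treats the 10 libraries as interchangeable, although they form 5 groups of 2 with different genotypes. Its p-values, here and for the pairs below, therefore do not measure the spread between groups. The immune subunits made up 13.4% to 15.2% of the members' TPM in PCs and 9.25% to 10.7% in PBs.

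The pairs that exchange for each other contributed unequally. *Psmb10* to *Psmb7* differed most, with 0.273 to 0.318 in PBs and 0.599 to 0.695 in PCs (2.15-fold, exact permutation p = 0.00952, adjusted p = 0.0127). *Psmb9* to *Psmb6* was at 0.824 to 1.12 in PBs and at 1.25 to 1.52 in PCs (1.40-fold, exact permutation p = 0.00952, adjusted p = 0.0127). *Psmb8* to *Psmb5* was at 6.79 to 7.39 in PBs and at 7.38 to 10.1 in PCs (1.22-fold, exact permutation p = 0.0190, adjusted p = 0.0190). Its control PCs at 7.38 and 7.46 were next to the highest PB library, and the Mist1-deficient PCs at 9.60 and 10.1 were above all others. The *Psmb8* to *Psmb5* ratio carries the uncertainty of *Psmb5*, of whose coding stretches 56.9% were repeated.

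Within a stage the ratio was also set against that of the control genotype, without a test. Compared with their controls, the summed ratio changed by -0.20 on the log2 scale in Xbp1-deficient PBs. The change was -0.08 in *Bhlha15* CreER/CreER PBs and 0.15 in Mist1-deficient PCs. The groups did not overlap in any of these comparisons, but groups of 2 libraries can also lie apart by chance. Taken as the mean of the log2 ratios of the 3 pairs instead, the changes were -0.073, -0.10 and 0.034. Their size therefore depended on the summary. In Mist1-deficient PCs only the *Psmb8* pair contributed to the rise (0.41), whereas the *Psmb9* pair changed by -0.17 and the *Psmb10* pair by -0.14. In Xbp1-deficient PBs the *Psmb9* pair changed by -0.28 and the *Psmb8* and *Psmb10* pairs by 0.01 and 0.05.

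**Figure D5:**
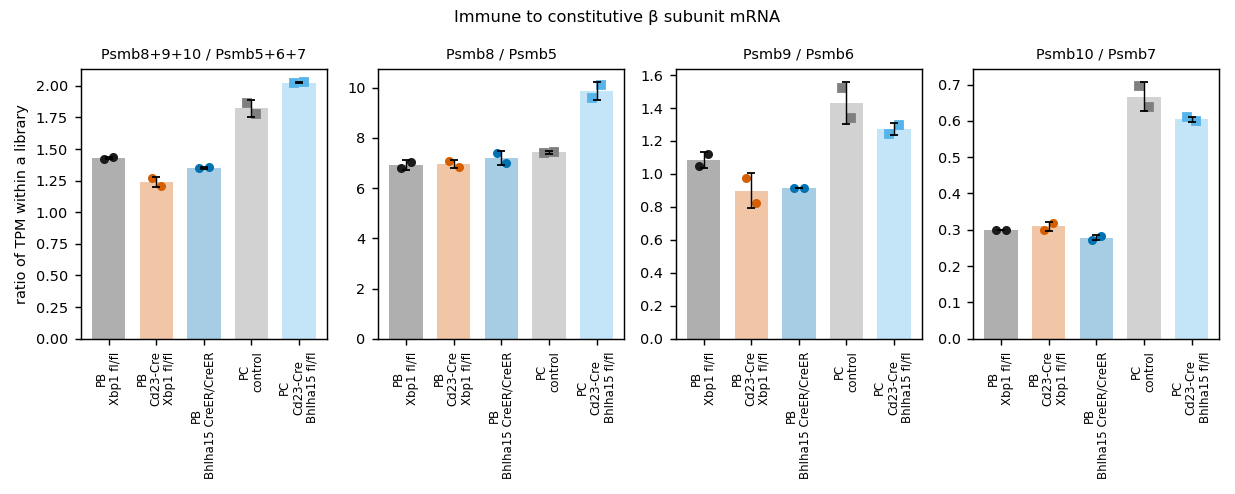
Ratio of immune to constitutive β subunit TPM within a library for the sum of the 3 pairs and for each pair, with 1 point per library, bars for the mean of 2 libraries and error bars for the SD (all axes start at 0). The summed ratio is at 1.78 to 2.03 in the 4 PC libraries and at 1.21 to 1.44 in the 6 PB libraries, and the *Psmb10* to *Psmb7* ratio separates PCs and PBs most widely.

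Genes that are known to act with the immunoproteasome were followed alongside. *Nlrc5*, the transactivator of MHC class I genes, *Irf1*, a mediator of the interferon response, and *Tap1* and *Tap2*, which carry peptides into the endoplasmic reticulum, were all expressed. In control PCs compared with *Xbp1* fl/fl PBs, *Nlrc5* was higher by 2.09, *Irf1* by 1.36 and *Tap1* by 0.20 on the log2 scale, and *Tap2* was lower (-0.29), all past the limma threshold. In Xbp1-deficient PBs, *Nlrc5* was at 22.2 and 24.6 TPM against 12.6 and 14.7 TPM (log2 fold change 0.57, SE 0.10, limma adjusted p = 0.0044), while *Irf1*, *Tap1* and *Tap2* did not pass. In Mist1-deficient PCs none of these 4 passed with limma, and 1 had an unadjusted p under 0.05, *Nlrc5*, which was at 69.1 and 70.2 TPM against 61.2 and 65.2 TPM (0.16, SE 0.06, adjusted p = 0.0826).

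Assembly factors, the transcription factors of proteasome genes, ubiquitin genes and shuttle factors, 29 genes in all, were counted in the same fits. In Xbp1-deficient PBs 7 fell and 4 rose, where 18.0% and 10.3% of all genes did. The split turned with the scaling. For TPM as deposited 5 fell and 14 rose (11.2% and 28.2% of all genes), and with quantile normalization 4 and 11 (16.2% and 20.7%). With scaling on the members the counts were 5 and 8 (12.3% and 15.8% of all genes). *Nploc4*, *Vcp*, *Ngly1* and *Nfe2l1* were called in the same direction each time. *Nploc4* and *Vcp*, which encode parts of the segregase that pulls proteins out of the endoplasmic reticulum membrane, fell by 0.84 and 0.75 on the log2 scale (limma adjusted p = 6.66e-05 and 0.000197), with 123 and 122 TPM against 77.8 and 79.9 TPM for *Nploc4*. *Ngly1*, which removes N-glycans from such proteins, fell by 0.69 (limma adjusted p = 0.000167). *Pomp*, the chaperone of core assembly, was at 495 and 488 TPM against 450.1 and 443 TPM (log2 fold change -0.35, limma adjusted p = 0.0269), and *Nfe2l1*, whose product activates proteasome genes when the particle is inhibited, at 187 and 201 TPM against 285 and 275 TPM (0.32, adjusted p = 0.042). *Nfe2l2*, a related factor, did not pass (0.26, adjusted p = 0.116).

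In *Bhlha15* CreER/CreER PBs none of the 29 passed with limma, and 5 had an unadjusted p under 0.05, beside 1267 of all 12125 genes tested. Between the mutant PB groups 9 were lower and 2 higher in the Xbp1-deficient PBs (17.8% and 9.34% of all genes), led by *Nploc4* (-0.91), *Vcp* (-0.88) and *Adrm1* (-0.55), a ubiquitin receptor of the base. This split turned as well, to 4 lower and 11 higher for TPM as deposited (10.4% and 32.8% of all genes). The counts were 6 and 9 with quantile normalization (15.3% and 19.2%) and 4 and 8 with scaling on the members (9.85% and 26.7%). In Mist1-deficient PCs 5 fell and 6 rose (16.2% and 13.3% of all genes). *Uchl5*, a deubiquitinase bound to the base, fell most, from 56.4 and 50.5 TPM to 27.5 and 27.8 TPM (log2 fold change -0.93, SE 0.09, limma adjusted p = 0.00237), followed by *Uba1*, the ubiquitin-activating enzyme (-0.44), while the ubiquitin fusion gene *Rps27a* rose by 0.61 and *Nfe2l2* by 0.34 (adjusted p = 0.0123). In control PCs against *Xbp1* fl/fl PBs 12 were lower and 7 higher (38.4% and 37.6% of all genes), and 10 and 11 with scaling on the members (29.4% and 45.7%). *Rps27a* was at 10.03 and 12.6 TPM against 3.28 and 4.09 TPM (log2 fold change 1.48, SE 0.15, limma adjusted p = 1.7e-05), whereas *Nfe2l1* (-1.43) and *Pomp* (-0.58) were lower. *Rps27a* was listed with the overlap tag, and repeated coding stretches were counted for the members alone. Its low levels and its changes in both PC comparisons are therefore uncertain.

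Mist1-bound regions shared by both Bio-ChIP experiments (23804 regions) were found within 1 kb of a TSS for 24 of the 38 members, 63.2%, which equals the share of 63.2% among 10859 genes tested in the PBs. All 4 activators and 7 of 8 lid genes had such a region, against 4 of 7 α ring, 3 of 7 constitutive β and 4 of 9 base genes. For *Psmb9* (chr17:34318932-34324697 in mm9, minus strand) the region chr17:34323195-34325498 covered the start site, which it shares with the divergent neighbour *Tap1*, and for *Psmb10* (chr8:108459628-108462292, minus strand) the region chr8:108460709-108462490 did. In contrast, *Psmb8* (chr17:34334666-34338399, plus strand), the immune subunit that rose in Mist1-deficient PCs, had no shared region within 1 kb. The nearest lay 5547 bases from its start site, although a peak lay within 1 kb when the peaks of either experiment were counted. Of the 10 members that changed in Mist1-deficient PCs, 7 had a region, as did 17 of the 28 that did not pass. Both regions at *Psme1* and *Psme4* covered all 250 bases before the RefSeq start site, of which the exon-free part is printed above, and the region at *Psmb10* covered 198 of them.

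RefSeq promoter entries (250 bases before to 50 after the TSS) were matched for 32 of 38 members. *Psmb1*, *Psmb2*, *Psmb7*, *Psmc3*, *Psmd3* and *Psmd7* had no entry. The letters were searched on both strands, and the share of all 27025 promoters with a match is given for each. CCAAT, the box bound by NF-Y, occurred in 12 members (37.5%, all promoters 41.1%). TGACNNNGC, the antioxidant response element of the factors encoded by *Nfe2l1* and *Nfe2l2*, occurred in 5 (15.6%, all promoters 14.0%), namely *Psmb5*, *Psmb6*, *Psmc6*, *Psmd12* and *Psme4*. The *Psme4* match was not within the bases before the start site and is not in the printed stretch. TTCNNNGAA, the gamma-activated site of the interferon response, occurred in *Psmb8* and *Psmd2* (6.25%, all promoters 9.55%). The interferon-stimulated element, as spelled above, occurred in *Psmb3*, *Psmd4* and *Psme1* (9.38%, all promoters 3.99%), of which *Psme1* carried it outside the printed stretch. These 3 are among the 5 members that rose in Xbp1-deficient PBs, which was noticed after both lists had been seen and was not tested. TGACGTGG, the core of an Xbp1 site, was in none of the 32 (all promoters 0.714%). Of the E-boxes, CAGCTG occurred in 2 members (6.25%, all promoters 18.3%), CATATG in none (all promoters 4.48%) and CAGGTG in 5 (15.6%, all promoters 22.6%). Each match is a run of letters, and binding there was not measured.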

How the data were processed

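RNA-seq was done on 10 libraries in 5 groups of 2, and Mist1 Bio-ChIP-seq gave 2 peak lists. The authors trimmed the 50-base single reads with cutadapt, aligned them to mm9 with STAR 2.4.2, counted them with featureCounts 1.5 and deposited TPM per gene, without immunoglobulin and T cell receptor genes. The library kit keeps the strand, and the strand setting of the counting is not given in the sources used here. The peak files, made with Bowtie 1.0.0, SAMtools 1.9, Picard 2.18.27 and MACS, hold positions in mm9 and a score that is 0 throughout, per the file contents deposited by the authors.

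From the deposited TPM, libraries were scaled by the median of ratios over all genes, and log2(scaled TPM + 0.1) was fitted with limma 3.58.1 (R 4.3.3, eBayes with trend) for genes that reached 1 TPM in 2 or more libraries, with the 6 PB libraries in 1 fit, the 4 PC libraries in another, and all 10 for comparisons between them. Fold changes are on this scale, which understates those of low genes. Calls are two-sided with a Benjamini-Hochberg adjusted p under 0.05 over all genes tested, and the script was tested on simulated data. Ratios within a library were compared by exact permutation (scipy 1.17.1). Mist1 regions were those in which peaks of both experiments overlapped, within 1 kb of a TSS. The promoters came from RefSeq (GRCm38.p6) and were placed in mm9 by their own sequence. Named in full were the immune β subunits with their constitutive counterparts, the activators, and in each comparison the 3 members with the largest change in each direction among those called. Of the 29 pathway genes, the 3 with the largest change among those called and *Nfe2l1*, *Nfe2l2* and *Pomp* were named. Some genes that this rule names are not reported here. Other genes in the text were picked with their values known. The members and gene lists were chosen with earlier results of these data known.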

Additional observations from a re-analysis of the deposited data

Results flagged for a closer look

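Of the genes followed, 3 showed a different *Bhlha15* effect in PCs and in PBs when the difference itself was tested (limma, 1 fit over 10 libraries), and none of them was a proteasome subunit of the 38. Over all genes tested, 4.17% were called lower and 1.94% higher, so calls of this kind were not particular to the genes followed. *Uchl5*, the deubiquitinase of the base, had a difference of -0.76 on the log2 scale (adjusted p = 0.0229), with a change of -0.93 in Mist1-deficient PCs and of -0.15 in *Bhlha15* CreER/CreER PBs. *Psmg2*, an assembly chaperone of the α ring, had a difference of -0.41 (adjusted p = 0.0429), with -0.37 in PCs and 0.05 in PBs. *Nlrc5* had a difference of 0.48 (adjusted p = 0.0422), with 0.16 in PCs and -0.31 in PBs, neither of which passed the test on its own. Only *Uchl5* was also called with each of the other 3 scalings, whereas *Psmg2* and *Nlrc5* were not called with TPM as deposited or with scaling on the members.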

How the results depend on the processing

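The 3-fold rule of the study called 0 members in the comparisons of Xbp1-deficient with control PBs (13 as reported), of the mutant PB groups (20), of the PC genotypes (10) and of control PCs with *Xbp1* fl/fl PBs (26). Without the eBayes trend, 6, 7 and 1 members were called in the first 3, and 5 and 7 pathway genes in Xbp1-deficient PBs and in each of the next 2, with 0 for the difference of *Bhlha15* effects. Scaling on the members, chosen after seeing the data, called 20 members in Xbp1-deficient PBs. Without the filter on low values, 13 members were called between the mutant PB groups, 6 between the PC genotypes, and 1 pathway gene for the difference of *Bhlha15* effects. A model of the 4 libraries compared called 11 between the mutant PB groups. For that difference, TPM as deposited called 2 members, quantile normalization 1 member and 6 pathway genes, and scaling on the members 1 member. TPM as deposited called 19 pathway genes in Xbp1-deficient PBs (11 as reported).

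Leaving out 1 library gave 4 to 8 members in Xbp1-deficient PBs, 4 to 25 between the mutant PB groups, 0 to 16 between the PC genotypes and 0 to 1 for the difference of effects. The pathway counts were then 5 to 6, 5 to 14, 1 to 13 and 0 to 3, and 0 to 1 in *Bhlha15* CreER/CreER PBs. The cause was not tested. Among the named members, 3 that were not called took the other sign and passed the test under another scaling. *Psmb7* between the mutant PB groups was at 0.16, 0.18 and 0.15 with TPM as deposited, quantile normalization and scaling on the members. *Psmb6* and *Psme1* in control PCs against *Xbp1* fl/fl PBs were at 0.16 and 0.17 with quantile normalization and at 0.12 and 0.14 with scaling on the members. As the mean of the 3 pairs, the change of the immune ratio was -0.073, -0.10 and 0.034 in Xbp1-deficient PBs, *Bhlha15* CreER/CreER PBs and Mist1-deficient PCs. Between 4 PC and 6 PB libraries the ratio kept its direction and call under 12 alternatives, with 0.49 to 0.56 on leaving out 1 library. Mist1 regions were found at 57.9% to 81.6% of the members, and at 58.5% to 74.2% of all genes tested, under 5 alternatives. No paired analysis was possible because the labels give no numbers that pair the libraries. A stricter peak threshold was not run, since the scores are 0 throughout. Depth is unknown from TPM.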
